A study of Mus musculus with 2 samples.

Results

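Mir21a is the mouse gene of the microRNA miR-21, and it was read here in heart tissue of mouse embryos of strain B6NCrl at embryonic day 10.5. It was chosen by its Ensembl identifier, ENSMUSG00000065455.1, and is 1 of 1973 microRNA genes (hairpins) listed in the count tables. The group comprised 2 libraries of small RNA below 30 bases, replicate 1 from a pool of 69 hearts and replicate 2 from a pool of 51 hearts, each pool of both sexes and healthy, with no treatment in the labels. Both pools carry the same donor identifier of the strain and are labelled as biological replicates, and a test between them sets 1 library against the other and covers counting error only. No other tissue, age or condition was available for comparison, so the values describe Mir21a at this age, its place among the other genes of the same libraries and the spread between the pools. In a whole-organ pool, fewer cells of a type and less RNA per cell cannot be told apart.

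MicroRNAs are cut from hairpin transcripts, and a mature strand of the hairpin guides a silencing complex to messenger RNAs that pair with its seed, the bases 2 to 8 from its 5′ end. miR-21 is known as a broadly expressed microRNA of fibroblasts, smooth muscle and many tumours, and as one that accumulates in the stressed and fibrotic adult heart, where cardiac fibroblasts are a main source. Its best known targets are messengers of growth and cell death regulators, among them Pdcd4 and Spry1. No messenger RNA was measured in these libraries, so target levels were not analysed.

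The hairpin lies at chr11:86584067-86584158 on the minus strand (mm10), within a transcribed part of Vmp1, which encodes a membrane protein of autophagy. GENCODE M21 places all 92 bases of it in the 3′ untranslated region of exon 12, the last exon of the annotated transcript Vmp1-201, and on the strand of Vmp1 itself. Between the last annotated coding base of that exon and the first base of the hairpin lie 1152 bases. Reads of Mir21a and short fragments of the Vmp1 messenger from the same bases therefore could not be told apart by position or strand.

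**Figure D1:**
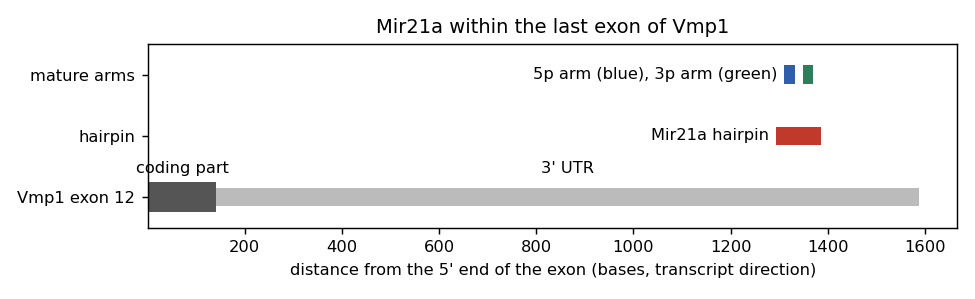
Map of exon 12 of Vmp1, drawn to scale against the distance in bases from the 5′ end of the exon in the direction of transcription, with the coding part (141 bases, dark grey), the untranslated part (1446 bases, light grey), the Mir21a hairpin (red) and its 5p and 3p arms (blue and green). The hairpin occupies bases 1294 to 1385 of the 1587 bases of the exon.

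The mature sequences are shown because they decide which reads could be assigned to Mir21a and which other genes carry the same seed. They were taken from RefSeq on GRCm38.p6, are written 5′ to 3′, and have the seed in capitals.
miR-21a-5p: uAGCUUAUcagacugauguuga
miR-21a-3p: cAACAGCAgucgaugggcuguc
miR-21c: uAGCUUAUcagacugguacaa
miR-21b: uAGUUUAUcagacugauauuucc

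Among 1679 mature mouse names in the RefSeq table, miR-21c was the only other one with the seed of miR-21a-5p, and none shared the seed of miR-21a-3p. miR-21c shares the first 15 bases with miR-21a-5p and then differs by A16G, G18A, U19C, U20A and G21A, where the base of miR-21a-5p comes first and positions count from its 5′ end. miR-21b has another seed and differs at 4 of 22 aligned bases, by C4U, G18A, G21U and A22C. The gene Mir21c had no count in either library, and Mir21b had no count in replicate 1 and 1 count in replicate 2. A count of 0 allows up to 3 counts in a library, so Mir21a was at least 22654-fold higher than Mir21c in replicate 1 and at least 30850-fold higher in replicate 2. Reads that carried the shared seed and were assigned to a listed gene thus came from Mir21a in both libraries, within that limit.

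The Mir21a hairpin shared no stretch of 20 bases with another annotated microRNA hairpin, whereas Mir23a and the Mir199 genes named below did share one. The first 18 bases of each arm were found in the GENCODE M21 transcripts of Mir21a and Vmp1 only, on the sense strand. Reads mapped to several places stand in a row of their own in the tables and were not given to genes. Genomic copies outside annotated transcripts were not analysed here. The counts are per hairpin, so the 5p and 3p arms could not be told apart.

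Mir21a was among the most abundant microRNA genes of the early heart. It had 67963 reads on its own strand in replicate 1 and 92551 in replicate 2, out of 4163656 and 4789068 own-strand gene counts. As CPM, own-strand counts scaled to a common library total, these were 16323 in replicate 1 and 19325 in replicate 2, with a mean of 17824 ± 2123 CPM (SD, n = 2). Mir21a held 1.63% of gene counts in replicate 1 (95% exact Clopper-Pearson interval 1.62 to 1.64) and 1.93% in replicate 2 (1.92 to 1.94), and these intervals lay apart. Of all sequenced reads, with unmapped and multiply mapped ones included, it held 0.677% in replicate 1 and 0.842% in replicate 2.

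No read at the Mir21a locus was listed on the opposite strand in either library, with the strand columns identified from their values. The own-strand count and the count over both strands were therefore the same, and 0 opposite reads allow a share of at most 0.00441% in replicate 1 and 0.00324% in replicate 2. Of the 381 genes with 10 or more own-strand counts in each library, 340 likewise had no opposite-strand read in either, Mir21a included.

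By abundance Mir21a ranked 13 of 1973 in replicate 1, 11 in replicate 2 and 11 by mean CPM. The ranks hold for uniquely mapped reads, since 929 of the 1973 genes share a stretch with another hairpin and multiply mapped reads were given to no gene. The genes with a count numbered 677 in replicate 1 and 682 in replicate 2, and their medians were 6.0 and 4.59 CPM. The most abundant gene was Mir335, with 8.54 times the counts of Mir21a in replicate 1 and 8.45 times in replicate 2. The genes next above Mir21a by mean CPM were Mir30e, Mir351 and Mir26b, and none of their ranges over the libraries overlapped that of Mir21a. Mir30e had 26274 and 27501 CPM in replicates 1 and 2, Mir351 had 19345 and 38124, and Mir26b had 30548 and 30605. The lowest Mir351 value exceeded the highest Mir21a value by very little, although each library on its own put Mir351 above Mir21a.

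The order just below Mir21a was not settled by these libraries. Mir130a had 18387 and 16425 CPM, Mir99b 17757 and 16139, and Mir23a 12616 and 18175, and each of these ranges overlapped that of Mir21a. Mir21a reached 0.888 of Mir130a in replicate 1 (0.879 to 0.897) and 1.18 of it in replicate 2 (1.17 to 1.19). Against Mir99b the same ratio was 0.919 in replicate 1 (0.910 to 0.929) and 1.20 in replicate 2 (1.19 to 1.21). As counted, the order thus turned between the libraries by more than counting error. Per annotated base of hairpin, the order against Mir130a and Mir99b did not turn. Mir21a then reached 0.618 of Mir130a in replicate 1 and 0.819 in replicate 2, and 0.699 and 0.911 of Mir99b. Its ratio to Mir23a was 1.29 and 1.06 as counted, with Mir21a the higher within each library, and 1.05 and 0.867 per base. Measured as distance of log2(CPM + 1) over the 2 libraries, the genes most like Mir21a in level were Mir99b (0.29), Mir130a (0.29), Mir208a (0.38), Mir23a (0.38) and Mir30a (0.56). With 2 libraries this likeness is one of level and says little of pattern.

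**Figure D2:**
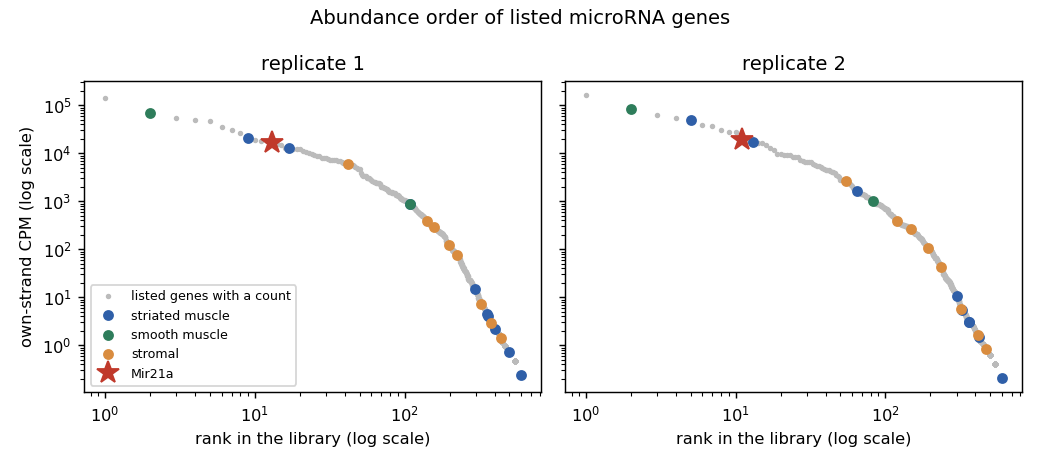
Own-strand CPM against rank in each library, both on log scales, for every listed gene with a count (grey), with Mir21a as a red star and the striated muscle, smooth muscle and stromal genes in colour. Mir21a stands at rank 13 in replicate 1 and 11 in replicate 2. The other stromal genes lie below it, the highest being Mir214 at rank 42 in replicate 1 and 55 in replicate 2.

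Reads below 30 bases cover a whole mature microRNA, so counts were compared between genes without division by hairpin length. Ratios per annotated hairpin base are given for Mir130a, Mir99b, Mir23a and Mir208a. Small RNA ligation favours some end sequences over others, and its part in the ratios between genes was not tested.

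Within the stromal list (Mir21a with the Mir199, Mir214 and Mir29 genes, microRNAs known from mesenchyme and fibroblasts), Mir21a held most of the counts. Its share of the list was 70.4% (70.1 to 70.7) in replicate 1, against 84.9% (84.7 to 85.1) in replicate 2. All 8 other stromal genes lay below Mir21a in both libraries. So did nearly all genes with a count, since only 12 of 677 lay above Mir21a in replicate 1 and 10 of 682 in replicate 2. Mir214, which is transcribed with Mir199a-2 in the Dnm3os transcript of mesenchyme, had 5982 CPM in replicate 1 and 2614 in replicate 2. Mir21a exceeded Mir214 2.73-fold in replicate 1 (2.69 to 2.77) and 7.39-fold in replicate 2 (7.26 to 7.53). The size of this excess thus rested strongly on which pool was read, although its direction did not.

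Mir29a, a microRNA known for repressing collagen messengers, had 286 CPM in replicate 1 and 396 in replicate 2. Mir21a exceeded Mir29a 57.1-fold in replicate 1 (53.9 to 60.5) and 48.8-fold in replicate 2 (46.7 to 51.1). Mir29c had 121 and 109 CPM, and Mir29b-1 and Mir29b-2 stayed below 10 CPM in both libraries. The miR-29 genes were therefore low only beside Mir21a, as counted in these libraries. Mir29a, Mir29c and Mir29b-1 lay above the median gene with a count (6.0 CPM in replicate 1 and 4.59 in replicate 2), and Mir29b-2 lay below it. Mir199b had 394 CPM in replicate 1 and 262 in replicate 2, Mir199a-2 had 77.1 and 42.2, and Mir199a-1 had 2.88 and 0.835. The Mir199 genes, Mir29b-1, Mir29b-2 and Mir29c share a stretch of at least 20 bases with another hairpin, and reads shared between copies are missing from their counts, which leaves the share of Mir21a in the list uncertain to that extent. Against Mir214 and Mir29a, the genes of the list with no such copy, the excess stands as counted.

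**Figure D3:**
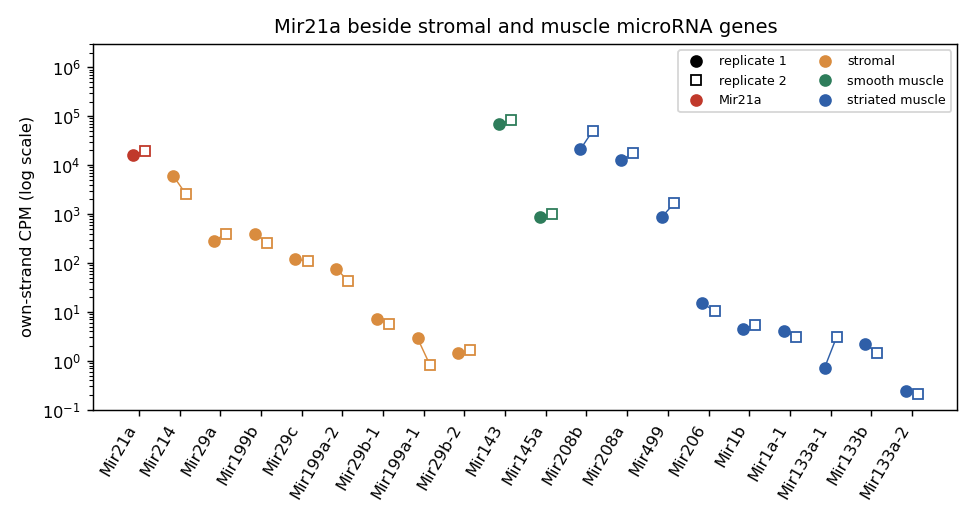
Own-strand CPM on a log scale for Mir21a (red) and the listed stromal, smooth muscle and striated muscle genes with a count, filled circles for replicate 1 and open squares for replicate 2, joined by a line for each gene. Mir143 and Mir208b lie above Mir21a in both libraries, and Mir208a lies close below it.

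Set against muscle microRNAs, Mir21a lay below Mir143 and Mir208b in both libraries and close to Mir208a. Mir143, known from smooth muscle and early heart, had 68864 CPM in replicate 1 and 85011 in replicate 2. Mir21a reached 0.237 of Mir143 in replicate 1 (0.235 to 0.239) and 0.227 of it in replicate 2 (0.226 to 0.229). Mir145a, of the same locus as Mir143, had 881 and 1011 CPM, and Mir21a exceeded it 18.5-fold in replicate 1 (17.9 to 19.2) and 19.1-fold in replicate 2 (18.6 to 19.7). Mir145b had no count in either library.

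Mir208b lies in an intron of Myh7 and Mir208a in an intron of Myh6, genes of the myosin heavy chains of heart muscle. Mir208b had 21037 CPM in replicate 1 and 49967 in replicate 2. Mir21a reached 0.776 of Mir208b in replicate 1 (0.768 to 0.784) and 0.387 of it in replicate 2 (0.384 to 0.390). Mir208a had 12836 CPM in replicate 1 and 17434 in replicate 2, and Mir21a exceeded it 1.27-fold in replicate 1 (1.26 to 1.29) and 1.11-fold in replicate 2 (1.1 to 1.12). As counted, Mir21a thus lay above Mir208a within each library, although their ranges over the libraries overlapped. Counted per base of hairpin, the excess was 1.15-fold in replicate 1 and 1.00-fold in replicate 2. With n = 2 the order of these genes was not tested over libraries. Mir499, in an intron of Myh7b, had 868 CPM in replicate 1 and 1646 in replicate 2, and Mir21a exceeded it 18.8-fold (18.2 to 19.5) and 11.7-fold (11 to 12).

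Mir208a and Mir208b, markers of heart muscle, were thus abundant in libraries labelled as heart. Mir1a-1, Mir1b, Mir133a-1, Mir133a-2 and Mir133b had at most 26 own-strand counts in a library, and Mir206 had 62 and 50. Mir1b had more reads on the opposite strand, with 65 in replicate 1 and 138 in replicate 2, than the 19 and 26 on its own. Mir1a-2 was not among the listed identifiers. All of these but Mir206 share sequence with another hairpin, so no ratio of Mir21a to miR-1 or miR-133 could be taken as a measure of their levels. Over both muscle lists and the stromal list, 18 of the 20 other listed genes had fewer counts than Mir21a in both libraries, and Mir143 and Mir208b had more. Of those 18, 11 share a stretch with another hairpin and may be undercounted. Among the 9 genes without such a copy, 7 lay below Mir21a in both libraries. These counts do not set the lists apart. Of all genes with a count, only 12 of 677 lay above Mir21a in replicate 1 and 10 of 682 in replicate 2.

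The ratios of Mir21a to other genes within a library do not depend on how the libraries are scaled, and they differed in how steady they were. The ratio to Mir143 differed 1.04-fold between the libraries and that to Mir145a 1.03-fold. Against Mir208a it differed 1.15-fold, against Mir29a 1.17-fold, against Mir499 1.60-fold, against Mir208b 2.01-fold and against Mir214 2.71-fold. Among the 78 other genes with at least 1000 CPM in both libraries, 10 had a ratio with Mir21a that differed by less than 1.1-fold, 35 differed by more than 1.5-fold, and the median was 1.44-fold. Mir143 was chosen as a comparator by its list, and 7 of the 78 genes were steadier against Mir21a than it was. With 2 libraries, a steady ratio between a pair of genes is a description and was not tested.

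**Figure D4:**
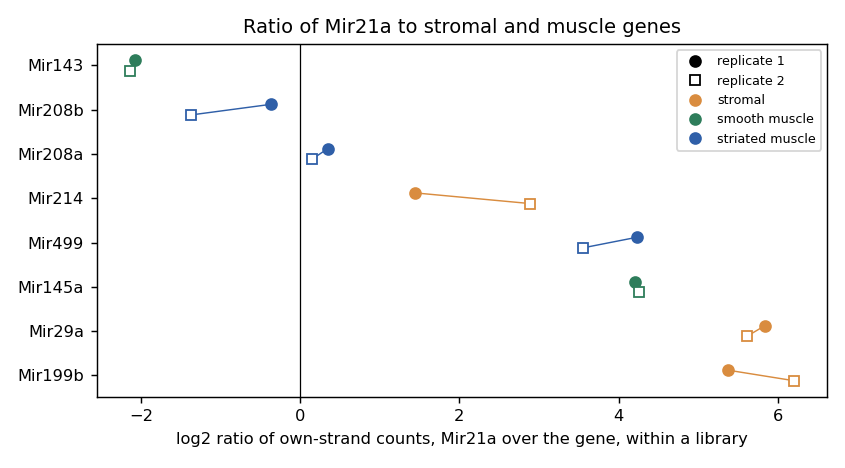
Log2 ratio of Mir21a over each gene within a library, on the horizontal axis, for the stromal and muscle genes of highest level, with filled circles for replicate 1, open squares for replicate 2 and a line joining them; the vertical line marks equal counts. Mir143 and Mir208b lie left of it and the other genes right of it, and Mir214 and Mir208b show the widest gaps between libraries.

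Mir21a was lower in replicate 1 than in replicate 2. After scaling by trimmed means (TMM) it had 14842 CPM in replicate 1 and 21254 in replicate 2, a log2 ratio of -0.52 (95% exact interval -0.53 to -0.50), or 1.43-fold lower. It passed an exact two-sided conditional binomial test across the 424 genes that reached 10 counts in either library, with a Benjamini-Hochberg adjusted p too small to be held as a number and written as 0. By the same rule 261 of the 424 genes (61.6%) were called, 129 of them lower in replicate 1 (30.4%), so a call on its own sets no gene apart at this depth. With library totals as the scaling, the log2 ratio of Mir21a was -0.24 (-0.26 to -0.23, adjusted p = 7.41e-246 by the same exact test), or 1.18-fold lower, where 15.6% of tested genes were called lower and 46.2% higher.

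That scaling moved the median of all tested genes to 0.29 on the log2 scale, against 0.01 under TMM. Relative to the median gene, Mir21a lay at -0.53, with 83 of 424 genes lower than it. Both values are the same under either scaling by construction, since a change of scaling shifts the log2 ratio of every gene equally. Without regard to sign, its log2 ratio exceeded that of 236 of the 424 genes under TMM and of 116 with total counts. The median difference over all 424 was 1.38-fold under TMM and 1.40-fold with total counts. The common biological coefficient of variation of the libraries was 37.2%, estimated by edgeR with 1 residual degree of freedom. The SD of Mir21a over the pools was 25.1% of its mean under TMM and 11.9% as CPM. The median gene-wise spread by DESeq2 was 18.7%, so the value under TMM lay below the edgeR figure and above that of DESeq2. Among 79 genes with at least 1000 CPM in both libraries, 59 had a smaller relative SD than Mir21a under TMM, with a median of 15.5%, and 29 had a smaller one as CPM, with a median of 16.6%.

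**Figure D5:**
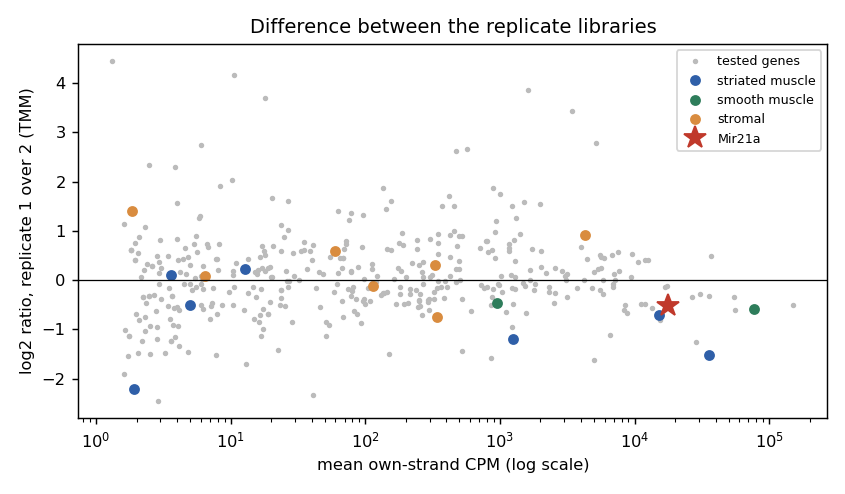
Log2 ratio of replicate 1 over replicate 2 after TMM scaling against mean own-strand CPM on a log scale, for the 424 tested genes (grey), with Mir21a as a red star and list genes in colour. Mir21a at -0.52 lies beside Mir143 and Mir208a, while Mir214 lies above the line of no difference.

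The genes Mir21a was set against moved both ways between the libraries, where 31.1% of all tested genes were called higher and 30.4% lower in replicate 1 under TMM. Of 8 tested stromal genes, Mir21a and Mir29a were lower in replicate 1 while Mir214, Mir199b and Mir199a-2 were higher, and the others did not pass. With total counts Mir199a-1 was also higher, on 12 and 4 counts. Mir214 had a log2 ratio of 0.92, Mir29a of -0.74, Mir199b of 0.32 and Mir199a-2 of 0.59. The stromal list had a median of 0.20, beside 0.01 over all tested genes, so Mir21a and the Dnm3os gene Mir214 went opposite ways and the list did not move as a whole. Both tested smooth muscle genes were lower in replicate 1, Mir143 at -0.58 and Mir145a at -0.47, as were 4 of 7 tested striated muscle genes, none of which was higher.

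Marker lists of other tissues also differed between the pools, and their counts of called genes stand against the same 31.1% higher and 30.4% lower over all tested genes. The Hox-cluster list held 1.79% of counts in replicate 1 and 0.205% in replicate 2, with all 5 tested genes higher in replicate 1. The epithelial list held 0.707% and 0.209%, with all 7 tested genes higher, and the liver and gut list 0.344% and 0.0504%, with 3 of 5 genes higher and 2 lower. In replicate 1 the sum of that last list rested on Mir122, with 3078 of 3440 CPM. In replicate 2 Mir122 had 175 of 504 CPM. In replicate 1, where Mir21a was lower, the summed Hox-cluster and epithelial lists were thus higher, while the striated muscle list had the smaller sum, with 3.48% in replicate 1 and 6.91% in replicate 2. Among blood lists, the erythroid one held 0.116% and 0.171% and the leukocyte one 0.0496% and 0.0360%, with Mir142b at 0 in both libraries and Mir142 not analysed here. The endothelial list held 5.34% and 5.56%, and the neural list 0.0407% and 0.0342%, with 4 of its 12 listed genes (Mir124a-1, Mir124a-2, Mir124a-3 and Mir9-2) at 0 in both libraries. Of those 12 neural genes, 11 share a stretch with another hairpin, so the neural sum and its zeros may be undercounts. The same holds for 2 of 3 endothelial, 2 of 6 Hox-cluster, 2 of 6 leukocyte and 2 of 5 liver and gut genes. The part of these tissues in the level of Mir21a, or in its difference between pools, was not tested.

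A further list held 22 listed genes known for changing in the stressed adult heart, Mir21a among them. Of these 22, 10 share a stretch with another hairpin and may be undercounted, which leaves the shares below uncertain to that extent. Of its 21 other genes, 20 lay below Mir21a in both libraries and Mir208b lay above it in both. Among all genes with a count, only 12 of 677 lay above Mir21a in replicate 1 and 10 of 682 in replicate 2. A place below Mir21a therefore does not set the genes of this list apart. The list as a whole held 7.84% of counts in replicate 1 and 11.6% in replicate 2, of which Mir21a made up 20.8% and 16.6%. Under TMM 13 of its 22 tested genes were lower and 5 higher in replicate 1, with a median log2 ratio of -0.32, beside 30.4% lower and 31.1% higher over all tested genes. With total counts 8 were lower and 8 higher, beside 15.6% lower and 46.2% higher over all. An abundant Mir21a was therefore present in these healthy embryonic pools, and no stressed heart was measured beside them.

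By uniquely mapped reads, Mir21a was also the most abundant of the genes that lie in an untranslated region. Of the 381 genes with at least 10 counts in both libraries, 18 (4.72%) overlapped an annotated untranslated region of a gene on the same strand. Mir21a held 80.9% of their counts in replicate 1 and 86.0% in replicate 2, where 3 of the 18, Mir27b among them, share a stretch with another hairpin and may be undercounted. The next were Mir324, in the untranslated region of Dvl2, with 2521 CPM in replicate 1 and 1895 in replicate 2, and Mir27b, with 1045 and 1026 CPM. Introns held 157 of the detected genes, other exons 84, and 122 lay in no other gene of the same strand.

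The listed microRNA genes within 1 Mb of Mir21a, Mir301 and Mir5110, lay below it in both libraries. So did nearly all genes, since only 12 of 677 with a count lay above Mir21a in replicate 1 and 10 of 682 in replicate 2. Mir301, in Ska2 at a distance of 529 kb and on the other strand, had 1611 CPM in replicate 1 and 1451 in replicate 2, and Mir21a exceeded it 10.1-fold (9.88 to 10.4) and 13.3-fold (13 to 14). Mir301 had a log2 ratio between the replicates of -0.12 under TMM (adjusted p = 1.40e-06 by the exact binomial test) and of 0.15 with total counts, so its direction turned with the scaling, which that of Mir21a did not. Mir5110, at 823 kb, had no count in either library.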

How the data were processed

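The data are read counts per microRNA gene as deposited by the authors, without normalization, for 2 libraries of embryonic heart. Each library was, per the README that accompanies its deposited files, counted from its own alignment file on mm10 with GENCODE M4 genes. Neither the aligner nor any trimming of adapters is named in the labels or README files. The columns of the tables are not named. They were read as both strands, own strand and opposite strand because the first equals the sum of the others for every gene and known microRNAs are abundant in the second, which was used. Library sizes exclude the rows without a gene. In replicates 1 and 2, unmapped reads were 26.3% and 25.5%, and multiply mapped reads 23.3% and 23.5%. Reads on the own strand of no listed gene were 8.98% and 7.41%, which include those on the opposite strand of a listed gene.

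Symbols and positions came from GENCODE M21 on the same assembly (1894 of 1973 identifiers matched, and no unmatched one had more than 1 count), sequences from RefSeq on GRCm38.p6. TMM factors and the dispersion came from edgeR 4.0.16, alternative size factors from DESeq2 1.42.0, exact tests and Clopper-Pearson intervals from scipy 1.17.1. The adjusted threshold was 0.05 and the prior count of log2 ratios 0.5. The binomial test was tested on simulated data with counting error only, so that check says nothing of the spread between pools. Intervals and the floor of 3 counts cover counting error only, and no molecular identifiers are named in the labels, so reads may not be independent molecules. A fit of edgeR's quasi-likelihood test needs a second group, so the exact binomial test between the libraries was used.

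Besides the stromal and muscle lists, the genes named are the 3 next above and below by mean CPM, the 5 nearest in level, those sharing a seed, those within 1 Mb and the highest stress gene. Mir21b, Mir335, Mir324, Mir27b and Mir122 were added after values were seen. The gene, lists and tests were chosen with earlier results of these data known. The alternatives were the other strand column, other scalings, filters, prior counts and length, genes with near-identical copies or the top gene left out, and each replicate alone.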

Additional observations from a re-analysis of the deposited data

How the results depend on the processing

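Mir21a kept its place among the abundant genes and its lower value in replicate 1 under every alternative run. Its mean level of 17824 CPM became 21031 CPM when the most abundant gene was left out, which follows from the smaller denominator, and ran from 16323 to 19325 CPM with 1 replicate left out. Its rank of 11 became 14 per base of hairpin, since shorter hairpins gain from that division, and ran from 11 to 13 with 1 replicate left out. The number of stromal and muscle genes below it stayed at 18 of 20 with both strands counted and per base of hairpin. Its log2 ratio between the replicates ran from -0.54 to -0.24, and its strand share was 100% in each library. Leaving out a replicate could change neither the 18 of 20 nor the strand share, since both already held in each library. Counting both strands could not change the 18 of 20 either. Among the 20 genes only Mir1a-1 and Mir1b had opposite-strand reads, at most 138 in a library. Other prior counts and the filter on low counts could hardly move the log2 ratio of a gene with as many reads as Mir21a. The biological coefficient of variation was 37.2% by edgeR and 18.7% as the median gene-wise dispersion of DESeq2, which are different summaries of the spread. Per base of hairpin, the mean log2 ratio of Mir21a moved by more than the spread between the libraries for Mir143 (to -2.65), Mir145a (to 3.84) and Mir208a (to 0.10), with no change of direction. No paired analysis was possible because the libraries form a single group. At this depth counting error is small beside the difference of the pools, and the number of libraries, 2, limits every statement on level.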
